A study of Mus musculus with 4 samples.

Results

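In long-term hematopoietic stem cells, the genes for the core and linker histones lay in accessible chromatin at both ages, and 41 of 67 (61.2%, against 19.7% of all genes) overlapped a region whose accessibility was lower in aged than in young cells. The regions still carried a peak in every library, as did 4893 of the 4905 narrow sites listed as lower in aged cells. No histone gene overlapped a region higher in aged cells, against 0.0457% of all genes for narrow and 0.516% for broad regions. The 67 genes are the protein-coding genes of the RefSeq table (GRCm38) whose symbols start with H1f, H2ac, H2bc, H3c or H4c and a number, out of 21883 protein-coding genes compared. By class they were 10 H1, 17 H2A, 16 H2B, 12 H3 and 12 H4 genes. A peak or site was assigned to a gene when it overlapped the gene body plus 1 kb on each side by at least 1 bp.

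Histones package DNA: pairs of H2A with H2B and of H3 with H4 form the nucleosome core, and H1 binds the linker DNA between cores. Replication-dependent histone genes are short, lack introns in their usual form and stand in clusters. They are transcribed mainly in S phase, under the coactivator Npat, and their messages end in a stem-loop bound by Slbp in place of a poly(A) tail. Long-term hematopoietic stem cells sit at the top of blood formation and are mostly out of the cell cycle.

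The assay was ATAC-seq: Tn5, a transposase loaded with sequencing adapters, cuts and tags DNA where chromatin is open. The mice were wild-type C57BL/6, and the labels name no treatment. Young mice were 4 to 5 months old and aged mice 20 to 22 months, with 2 libraries at each age and 25000 sorted cells in each library. The labels call the samples biological replicates but do not say whether mice were pooled or of which sex. The question set by the design was which accessible sites are specific to an age.

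The authors called narrow and broad peaks in each library, and read depth is unknown. The narrow lists held 106186 to 133131 intervals and covered 60.3 to 63.5 Mb of the genome in each library. Of 11 stem cell marker genes, 11 had a narrow peak in all 4 libraries, and of the 8 with a known start, 7 had a peak over it. A narrow peak in all 4 libraries was also found in the windows of 4 of 5 B cell, 2 of 5 T cell, 4 of 5 erythroid and 0 of 5 granulocyte markers. No B cell (3), T cell (4) or granulocyte (5) marker with a known start had a peak over the start in all 4, and 1 of 4 erythroid markers did.

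Of the 67 genes, 63 stood in 2 clusters. On chromosome 13 there were 3 blocks with gaps above 200 kb between them, named A to C here. Block A held 17 genes from 21715711 to 21833475, block B 5 genes from 22035122 to 22043658, and block C 31 genes from 23531044 to 23934913. The chromosome 3 cluster held 10 genes from 96219885 to 96270192. The other 4 genes stand alone: H1f0 and H1f7 on chromosome 15, and H1f10 and H1f8 on chromosome 6. These 4 have no older Hist symbol. They fit the letters of the choice but are linker histone genes outside the replication-dependent clusters. H1f0 and H1f10 encode replication-independent linker histones, H1f7 a linker histone of spermatids and H1f8 that of oocytes. The median gene was 496 bp long, so that many windows overlapped, and the 67 windows merged into 37.

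Nearly all histone genes had a peak. A narrow peak lay in the windows of 64 genes in young replicate 1 and of 66 genes in young replicate 2, aged replicate 1 and aged replicate 2. In all 4 libraries this held for 64 of 67 genes (95.5%), against 76.4% of all protein-coding genes. Broad peaks lay in the windows of 66 genes in all 4 libraries (98.5%), against 82.8%. The young mean was 65 ± 1.41 genes and the aged mean 66 ± 0 (SD, n = 2 each), and the exact two-sided permutation p was 1. With 2 libraries against 2, the smallest p that such a test can give is 0.333, so no difference between the ages could pass 0.05.

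The exceptions were genes of germ cells. H2bc1 and H2ac1, a divergent pair that encodes the testis forms of H2B and H2A, had no narrow peak in young replicate 1. In the other libraries only 165, 153 and 135 bp of each of their windows were covered. H1f7 had no narrow peak in any library and a broad peak of 389 bp in aged replicate 2 alone. A gene start was known for 62 of the genes, and it lay under a narrow peak in all 4 libraries in 57 of them (91.9%), against 59.8% of 17491 genes. The 5 genes whose start was not covered in all 4 libraries were H1f6, H2bc1, H2ac1, H1f7 and H1f8. All 5 encode forms known from the testis or the oocyte. The window of H1f6, the testis linker histone, held only the edge of the peak of its neighbour H4c3, with 49, 64, 45 and 44 bp covered in young replicates 1 and 2 and aged replicates 1 and 2.

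Within its own list, the strongest narrow peak of a histone gene ranked high among all intervals. The strongest peaks of other genes were not ranked in this way. Counted by region with a peak in all 4 libraries, 8 of 50 narrow regions at histone genes were in the strongest 10% (16%, against 10%). For broad regions it was 24 of 45 (53.3%, against 10%). The median percentile of the strongest peak was 83.2 and 86.8 in the young libraries and 90 and 92.2 in the aged libraries. The median of the authors' fold over the library's own background was 4.94, 5.02, 5.51 and 7.19 in young replicates 1 and 2 and aged replicates 1 and 2. Over all narrow intervals, not only the strongest in a gene's window, it was 4.75, 4.45, 4.56 and 5.14 in the same order. These folds depend on each library's background and on how many peaks were called, and were not tested between ages. At histone genes the median fold and the median percentile were higher in both aged than in both young libraries. This is the other direction from the authors' listed sites, and the reason was not tested. By mean over libraries, the highest fold on chromosome 13 was 8.78 at H2bc22 and the lowest 3.63 at H4c2. The H2bc22 window is 16079 bp long, and its highest folds were 7.96, 9.26, 9.78 and 8.10 in the same order. The strongest summit within 1 kb of the H2bc22 start had folds of 5.96, 5.98, 6.09 and 8.10. On chromosome 3 the highest mean was 8.16 at H4c14 and the lowest 5.6 at H2ac18.

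**Figure D1:**
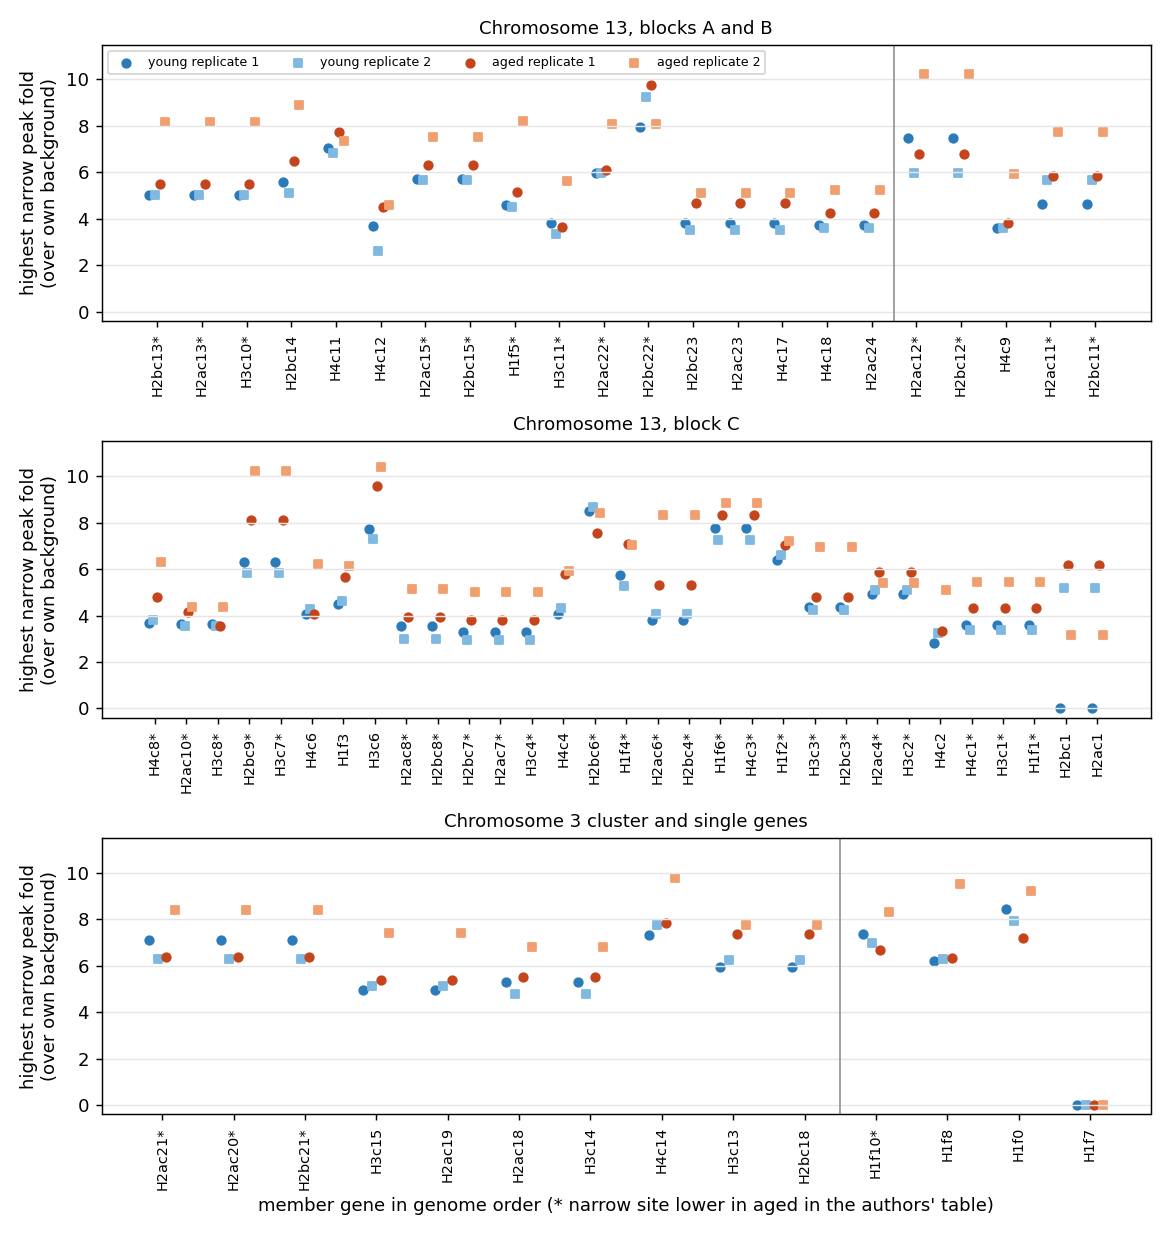
The highest narrow peak fold in the window of each histone gene (y axis, the authors' fold over the library's own background; 0 where there was no peak) is plotted in genome order for the 4 libraries, and an asterisk marks genes with a narrow site lower in aged cells. H1f7 is at 0 in every library and H2bc1 and H2ac1 in young replicate 1, and runs of neighbours share a peak and hence a value.

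The length under peaks did not separate the ages. Narrow peaks covered 67929 and 69685 bp of the merged windows in young replicates 1 and 2, and 67943 and 63711 bp in aged replicates 1 and 2. Aged replicate 1 lay between the young libraries and aged replicate 2 below both. The means were 68807 ± 1241.68 bp and 65827 ± 2992.48 bp (SD, n = 2), a difference of -2980 bp with an exact two-sided permutation p of 0.667. It was -864 bp without aged replicate 2 and -5096 bp without aged replicate 1. Broad peaks covered 80856 and 87152 bp in young and 85402 and 76924 bp in aged libraries, with a difference of -2841 bp (exact permutation p = 0.667). The broad difference was 1398 bp without aged replicate 2 and 307 bp without young replicate 2, so either library decided its sign. Narrow covered length was lower in both aged than in both young libraries in 18 of 67 genes (26.9%, against 18.5% of all genes), and higher in 8 (11.9%, against 10.6%). For broad peaks these counts were 10 genes lower (14.9%, against 11.6%) and 6 higher (8.96%, against 17%).

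Covered length was also taken per block. In block B 54% and 57.2% of the window length was covered in young replicates 1 and 2, and 53.8% and 45.6% in aged replicates 1 and 2. On chromosome 3 the shares were 53.6%, 53.7%, 54.2% and 52.2% in the same order. Block A had 36.4%, 37.5%, 36.9% and 34.3%, and block C 28.9%, 29.9%, 28.6% and 26.6%. Long annotated genes weigh on blocks A and C, where the window of H2bc22 makes up 16079 of 48385 bp and that of H2bc6 39455 of 106740 bp, so the blocks are not ranked. Aged replicate 2 had the lowest share in each of the 4.

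The authors compared the ages with DiffBind, which tests reads in regions across libraries. Their narrow table lists 4905 sites lower and 27 sites higher in aged cells, all with an FDR up to 0.05. It gives each site a log2 level (mean normalized reads) for young and for aged, and a log2 fold of aged over young. In the authors' deposited table, 41 of 67 histone genes (61.2%) overlapped a lower narrow site, against 19.7% of all genes. Among genes with a narrow peak in all 4 libraries it was 41 of 64 (64.1%), against 25.7%. Within 1 kb of the gene start, a window of equal length for every gene, it was 36 of 62 (58.1%), against 16.1%. Where that window held a narrow peak in all 4 libraries it was 36 of 58 (62.1%), against 24.4%. No histone gene overlapped a site higher in aged cells, against 0.0457% of all genes. Within 1 kb of a start there was no higher site either, against 0.00572% of all starts in the narrow and 0.0229% in the broad table. The authors' deposited table holds no sites above the FDR threshold, so smaller differences at the other genes were not analysed here.

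The broad table gave the same direction. Of the histone genes, 21 (31.3%) overlapped a lower broad site of the authors' deposited table, against 4.52% of all genes, and 0 a higher one, against 0.516%. With a narrow peak in all 4 libraries it was 21 of 64 (32.8%), against 5.91%, and within 1 kb of the gene start 18 of 62 (29%), against 3.33%. Where the window around the start held a narrow peak in all 4 libraries it was 18 of 58 (31%), against 5.02%. There were 20 genes with a lower site in both tables, 42 in either and 25 in neither. H4c9 was the gene in the broad table alone, through a site that also reached H2ac11 and H2bc11.

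Since windows overlap, these counts rest on fewer sites. The 41 genes shared 22 distinct narrow sites, 16 of them overlapped by at least 2 histone genes, and the 21 genes shared 9 broad sites. All 22 and all 9 had a peak in all 4 libraries, as did 4893 of all 4905 lower narrow sites and 1058 of all 1079 lower broad sites. Each of the 9 broad sites overlapped one of the narrow sites. Counted by region, 22 of 50 narrow regions at histone genes with a peak in all 4 libraries were lower sites (44%), against 6.36% of such regions in the genome. Among the strongest 10% of those regions, 5 of 8 at histone genes were lower sites (62.5%), against 29.2%. With a peak in at least 2 libraries required, 22 of 52 were (42.3%), against 4.3%. For broad regions the shares were 9 of 45 in all 4 libraries (20%, against 0.878%), 7 of 24 in the strongest 10% (29.2%, against 4.22%) and 9 of 51 in at least 2 libraries (17.6%, against 0.376%). In the authors' deposited table the 22 folds ran from -0.74 to -0.27 with a median of -0.40, beside a median of -0.40 over all lower sites. Their young levels had a median of 9.65, against 9.24 over all lower sites.

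**Figure D2:**
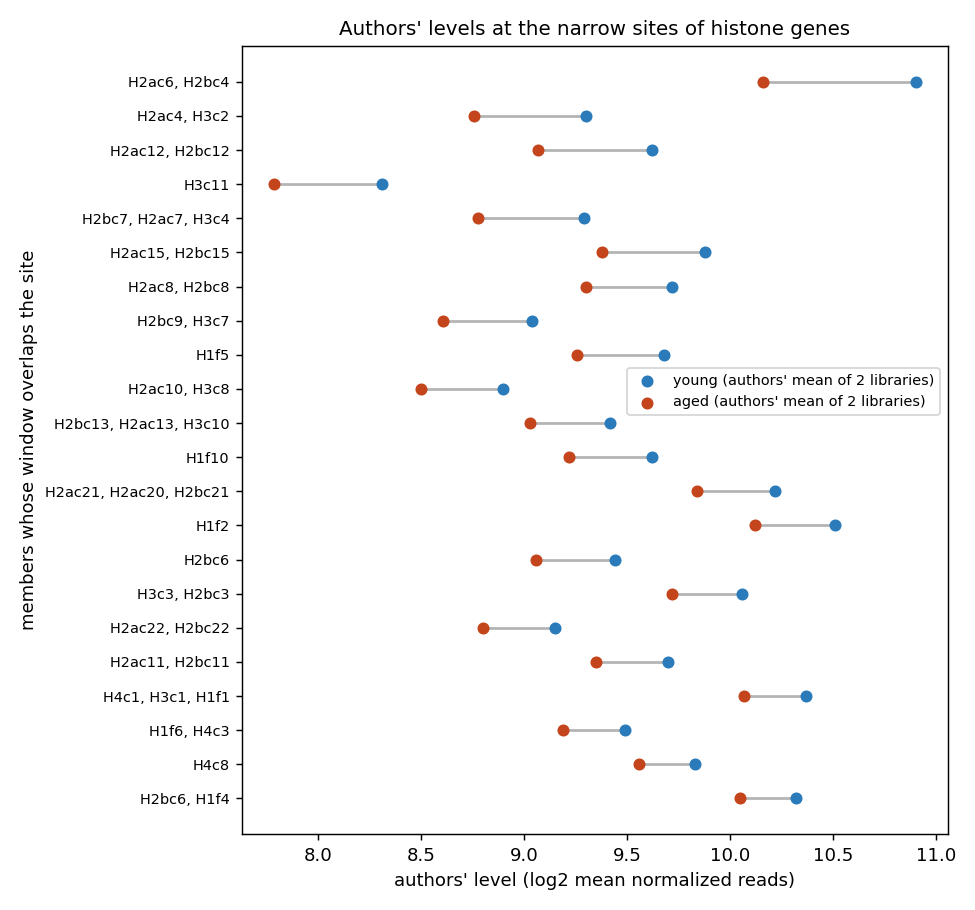
The authors' log2 level in young (blue) and aged cells (red) is plotted for the 22 narrow sites at histone genes, 1 line per site named by the genes whose windows it overlaps, ordered by fold. The aged level is below the young level at every site, which is how the sites were listed, and the log2 fold runs from -0.74 at H2ac6 and H2bc4 to -0.27 at the site of H1f4 and the start of H2bc6. The points are the authors' means over 2 libraries, with no error given.

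The H2B and H2A genes had the highest shares of listed genes, with H3 close to them and H4 lowest. The order of the classes was not tested, and a site shared by an H2A and an H2B gene counts for both. H2A and H2B form the dimer that joins and leaves the nucleosome most readily, and their genes often stand head to head over a common promoter. There were 12 of 17 H2A genes (70.6%) and 12 of 16 H2B genes (75%) with a lower narrow site, against 19.7% of all genes. The share was 66.7% for H3, 60% for H1 and 25% for H4 genes. For the 9 divergent pairs with both starts known, the starts were 164 to 281 bp apart (median 180). No start was known for H2bc4 and H2bc21, so they are in none of these pairs. In 8 of the 9 pairs the stretch between the starts was under a narrow peak from end to end in all 4 libraries, and in 7 both genes shared a lower site. The pairs without one were H2bc23 with H2ac23, and the testis pair H2bc1 with H2ac1.

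The site with the largest fold lay at H2ac6 and H2bc4 in block C, at chr13:23682000-23685763. In the authors' deposited table its level was 10.90 in young and 10.16 in aged cells, a log2 fold of -0.74 (FDR = 0.0047), and the broad site there had -0.77 (FDR = 0.0165). Narrow peaks covered 3352 and 3685 bp of this site in young replicates 1 and 2, and 2734 and 2327 bp in aged replicates 1 and 2. Both aged libraries thus had less of it under peaks than both young libraries. The site was picked by its fold between the same libraries, so this is not separate evidence. The fold of the peak over its own background was 3.81, 4.05, 5.32 and 8.31 in the same order, and thus higher in both aged libraries. The site of H2ac15 and H2bc15 in block A had the smallest FDR among the 22. In the authors' deposited table it had levels of 9.88 and 9.38 and a fold of -0.50 (FDR = 0.000859). Peaks covered 1811 and 1853 bp of it in young and 1760 and 1634 bp in aged libraries, without overlap between the ages. This site too was picked by a value from the same libraries. Narrow covered length was lower in both aged libraries in the windows of 18.5% of all genes.

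In block B, the site of H2ac12 and H2bc12 had levels of 9.62 in young and 9.07 in aged cells and a fold of -0.54 in the authors' deposited table (FDR = 0.00433). Covered length did overlap between the ages there, with 1479 and 1941 bp in young and 1708 and 1506 bp in aged libraries. The neighbouring pair H2ac11 and H2bc11 had a fold of -0.34 with FDR = 0.03 per the authors' deposited table. On chromosome 3, 1 site reached H2ac21, H2ac20 and H2bc21, with levels of 10.22 and 9.84 and a fold of -0.39 in the authors' deposited table (FDR = 0.00309). It was the sole lower site of that cluster. H2bc6 overlapped 2 sites because its annotated gene is 37455 bp long. The first lay at the end of the gene away from its start (fold -0.38 in the authors' deposited table), and the second covered its start and lay at H1f4 (-0.27).

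The other H2A and H2B sites of the authors' deposited table had folds between -0.54 and -0.35. They lay at H2ac4 with H3c2 (-0.54), H2bc7 with H2ac7 and H3c4 (-0.51), H2ac8 with H2bc8 (-0.43), H2bc9 with H3c7 (-0.43), H2ac10 with H3c8 (-0.40), H2bc13 with H2ac13 and H3c10 (-0.40), H2ac22 with H2bc22 (-0.35) and H2bc3 with H3c3 (-0.35). In a site that reaches genes of 2 classes, the reads cannot be assigned to one gene.

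Of the H3 genes, 8 of 12 overlapped a lower narrow site. H3 carries many of the histone tail modifications. Of the 8, H3c11 in block A had a site to itself, the weakest of the 22, with levels of 8.31 in young and 7.79 in aged cells and a fold of -0.52 in the authors' deposited table (FDR = 0.0294). Narrow peaks covered 634 and 543 bp of it in young and 653 and 578 bp in aged libraries, so that the ages overlapped. The other 7 shared sites with H2A, H2B, H4 or H1 genes.

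Linker histone genes were listed in 6 of 10 cases: H1f1, H1f2, H1f4, H1f5, H1f6 and H1f10. The site of H1f2, a main somatic linker histone, had levels of 10.51 and 10.12 and a fold of -0.38 in the authors' deposited table (FDR = 0.00227). Peaks covered 1948 and 1680 bp of it in young and 1495 and 1692 bp in aged libraries, and these ranges overlapped. H1f5 had a fold of -0.42 (FDR = 0.0174) and H1f10 a fold of -0.39 with FDR = 0.0103 per the authors' deposited table. H1f1 shared its site with H4c1 and H3c1. H1f6 was counted through the edge of the H4c3 site, and its own start was not under it. H1f3 and H1f0 had peaks in every library and no lower site.

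Of the H4 genes, 3 of 12 (25%) overlapped a lower narrow site. This is near the 25.7% of genes with a narrow peak in all 4 libraries (19.7% of all genes). H4 pairs with H3, and its genes encode one protein. In the authors' deposited table the folds were -0.28 at H4c8 (FDR = 0.042), -0.29 at H4c3 (FDR = 0.0492) and -0.30 at the site of H4c1, H3c1 and H1f1 (FDR = 0.0145). The genes H4c2, H4c4, H4c6, H4c9, H4c11, H4c12, H4c14, H4c17 and H4c18 had a narrow peak in all 4 libraries and no lower narrow site. The difference between H4 and the other classes was not tested, since the genes share sites. The strongest peak of an H4 gene also ranked lower than that of the other core classes, with a median percentile of 78.9, 82, 87.8 and 86 in young replicates 1 and 2 and aged replicates 1 and 2.

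By cluster, 9 of 17 genes in block A, 4 of 5 in block B, 24 of 31 in block C and 3 of 10 on chromosome 3 overlapped a lower narrow site. These came from 5, 2, 13 and 1 distinct sites. The share was 19.7% over all genes and 25.7% over genes with a narrow peak in all 4 libraries, and chromosome 3 (30%) was near the latter. Broad sites were listed for 5, 5, 8 and 3 genes (29.4%, 100%, 25.8% and 30%, against 4.52% of all genes). The folds ran from -0.52 to -0.35 in block A, -0.54 to -0.34 in block B and -0.74 to -0.27 in block C in the authors' deposited table.

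Some histone genes are near copies, which limits what their counts can show. Reads from a stretch found at more than 1 place cannot be assigned to a gene, and how such reads were handled is not given in the sources used here. Over the 62 promoters with a sequence (250 bases before to 50 after the start), 9 shared at least 50% of their 25-base stretches with another promoter elsewhere in the genome. They were H2bc23, H2ac23, H4c17, H4c18 and H2ac24 in block A, and H3c15, H2ac19, H2ac18 and H3c14 on chromosome 3, and the shares ran from 70.7% to 100%. None of these 9 genes overlapped a lower narrow site, against 37 of the 53 others. Genes on both sides of this count share peaks or sites, so they are not separate cases. Among the 9, the strongest peak was the same for H2bc23, H2ac23 and H4c17, and for H4c18 and H2ac24. It was also the same for H3c15 and H2ac19, and for H2ac18 and H3c14. All 9 had a narrow peak in all 4 libraries. This check was added after the listed genes were known, and the part of read assignment in the result was not tested. Since none of the 9 was listed, leaving them out could not lower any share, and near copies were not left out of the shares over all genes. Without the 9 genes the counts were 9 of 12 in block A and 3 of 6 on chromosome 3. By class they were then 12 of 13 H2A, 12 of 15 H2B, 8 of 10 H3 and 3 of 10 H4 genes. The H2A gene left was the testis gene H2ac1.

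**Figure D3:**
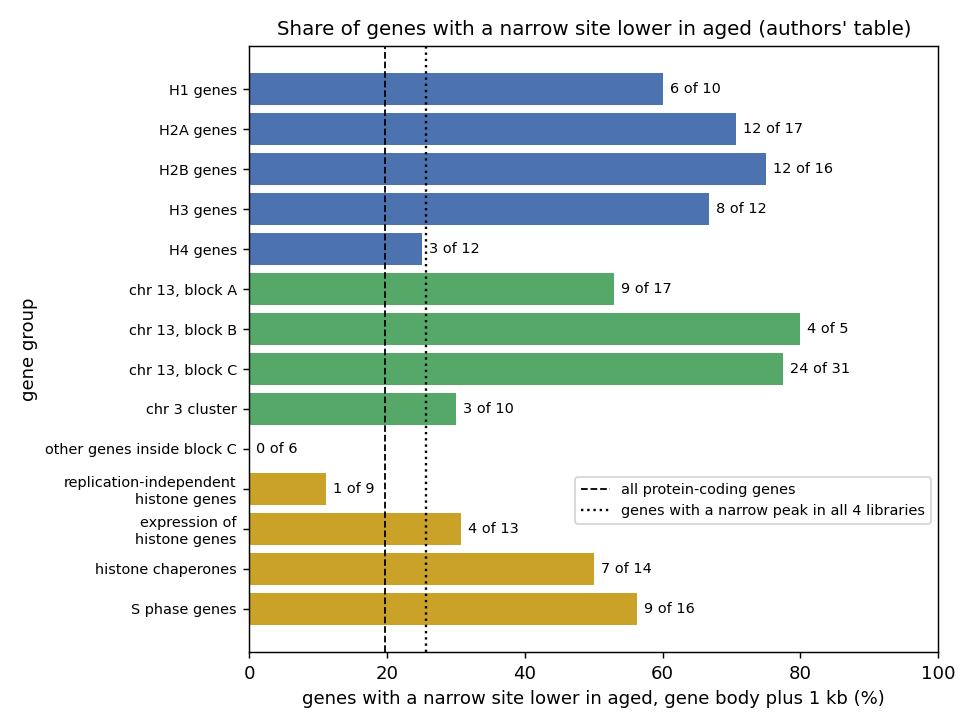
Bars give the percentage of genes in each group with a narrow site lower in aged cells within the gene body plus 1 kb, with the count beside each bar; blue bars are histone classes, green bars clusters, the grey entry the other genes inside block C, and yellow bars related gene lists. The dashed line is the share of all protein-coding genes (19.7%) and the dotted line that of genes with a narrow peak in all 4 libraries (25.7%); H2A, H2B, H3 and H1 stand above both, and H4 (25%) lies between them.

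Promoters of 6 genes are shown next, since most genes with a lower site had one within 1 kb of the start and the classes carry different elements. Each runs 5′ to 3′ on the gene's own strand and ends at the base before the start. It begins 250 bases upstream or where the next annotated gene begins. Sequences are from RefSeq (GRCm38), and 62 of 67 genes were matched; H3c7, H2bc4, H3c1, H2bc21 and H4c14 were not. Capitals mark matches on either strand to the octamer ATTTGCAT (bound by Pou2f1), CCAAT (the CCAAT box), TATAAA (the TATA box), AAACACA (the H1 box) and GGTCCG (an element of H4 promoters bound by Hinfp). H2ac6 and H2ac12 are shown as promoters next to an H2B gene, at sites with folds of -0.74 and -0.54. H2ac12 is in a divergent pair, while the start of H2bc4 beside H2ac6 was not known. H1f2 and H3c11 are shown as sites listed for H1 and H3, H4c1 as a listed H4 gene and H4c12 as an H4 gene that was not listed.
H2ac6 (chr13:23683960-23684198, minus strand): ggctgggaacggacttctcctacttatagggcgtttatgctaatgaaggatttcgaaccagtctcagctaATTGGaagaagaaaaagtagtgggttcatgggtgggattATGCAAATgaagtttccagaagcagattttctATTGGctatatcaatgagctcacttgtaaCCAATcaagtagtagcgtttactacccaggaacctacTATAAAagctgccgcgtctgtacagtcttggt
H2ac12 (chr13:22035644-22035820, minus strand): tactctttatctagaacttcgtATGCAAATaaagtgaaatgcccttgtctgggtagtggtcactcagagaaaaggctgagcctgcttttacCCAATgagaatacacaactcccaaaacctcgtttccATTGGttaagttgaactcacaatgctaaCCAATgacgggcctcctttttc
H1f2 (chr13:23738557-23738806, plus strand): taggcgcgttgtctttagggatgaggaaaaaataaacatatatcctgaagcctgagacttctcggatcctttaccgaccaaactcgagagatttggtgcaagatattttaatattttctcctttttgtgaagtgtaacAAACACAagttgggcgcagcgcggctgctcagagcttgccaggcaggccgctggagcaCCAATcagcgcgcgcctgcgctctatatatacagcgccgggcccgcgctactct
H3c11 (chr13:21783398-21783647, minus strand): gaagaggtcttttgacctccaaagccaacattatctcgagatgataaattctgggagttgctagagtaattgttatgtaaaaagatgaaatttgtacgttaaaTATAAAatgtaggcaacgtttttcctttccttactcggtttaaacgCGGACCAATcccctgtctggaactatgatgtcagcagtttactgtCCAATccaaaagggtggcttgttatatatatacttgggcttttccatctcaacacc
H4c1 (chr13:23761250-23761499, minus strand): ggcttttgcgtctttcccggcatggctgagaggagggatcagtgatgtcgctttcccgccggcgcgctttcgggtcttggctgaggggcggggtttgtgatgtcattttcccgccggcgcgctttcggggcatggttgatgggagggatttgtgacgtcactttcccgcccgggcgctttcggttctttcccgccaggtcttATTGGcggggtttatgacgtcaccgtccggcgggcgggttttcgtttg
H4c12 (chr13:21750554-21750803, minus strand): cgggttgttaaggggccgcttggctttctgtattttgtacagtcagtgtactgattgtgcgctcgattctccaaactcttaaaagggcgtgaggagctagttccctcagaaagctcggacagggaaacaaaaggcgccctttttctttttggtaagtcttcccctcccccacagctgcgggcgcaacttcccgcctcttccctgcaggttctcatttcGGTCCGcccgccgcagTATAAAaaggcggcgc
The sequences of H2ac6 and H2ac12 are the whole stretch to the next gene, H2bc4 and H2bc12, and each holds an octamer and CCAAT boxes. In H3c11 a CCAAT box overlaps a match to the H4 element on the other strand. H4c12 holds the H4 element and a TATA box and no CCAAT box, while H4c1 holds a CCAAT box and no H4 element.

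Over all 62 promoters (250 bases before to 50 after the start, both strands), the letters were counted by class. CCAAT was in 51 promoters (82.3%), against 37.4% of 32851 promoters of the table. It was in 17 of 17 H2A, 14 of 14 H2B, 10 of 10 H3, 7 of 10 H1 and 3 of 11 H4 promoters. The octamer was in 12 (19.4%, against 1.74%), of which 6 were H2A and 6 H2B promoters. TATAAA was in 34 (54.8%, against 13.6%). The H1 box was in 5 of 10 H1 promoters and in 9 overall (14.5%, against 7.18%). The H4 element was in 10 of 11 H4 promoters and in 13 overall (21%, against 8.25%), and H4c1 was the H4 gene without it.

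Genes with a CCAAT match had a lower narrow site in 35 of 51 cases, and those without it in 2 of 11. The 11 were all H1 or H4 genes. Within H4 a lower site was found in 2 of 3 genes with CCAAT (H4c1 and H4c3) and 1 of 8 without it (H4c8). Within H1 it was 5 of 7 and 1 of 3. The 5 include H1f6, counted only through the edge of the H4c3 site, so that site enters both comparisons. These counts are small, and the genes share sites, so no test was made. With the octamer 8 of 12 genes had a lower site, and without it 29 of 50. For the H4 element the counts were 5 of 13 with it and 32 of 49 without it. A match is a run of letters and does not show that a factor binds there.

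The place of the highest signal was compared by class. The strongest narrow summit within 1 kb of the start lay downstream of the start in H1 genes, at a median of 290, 275, 284 and 229 bp in young replicates 1 and 2 and aged replicates 1 and 2 (8 genes each). In H2B genes it lay upstream, at -157, -74, -91.5 and -134 bp in the same order (13 or 14 genes). In H4 genes it lay at 78, 82, 90 and 61 bp (11 genes). H2A genes had medians of 10.5, -39, 50 and -1 bp, and H3 genes 90.5, 57, 99 and -19 bp. The medians kept their side of the start in all 4 libraries for H1, H2B and H4, and no age stood apart from the other in those classes. A summit can belong to the neighbour in a divergent pair.

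**Figure D4:**
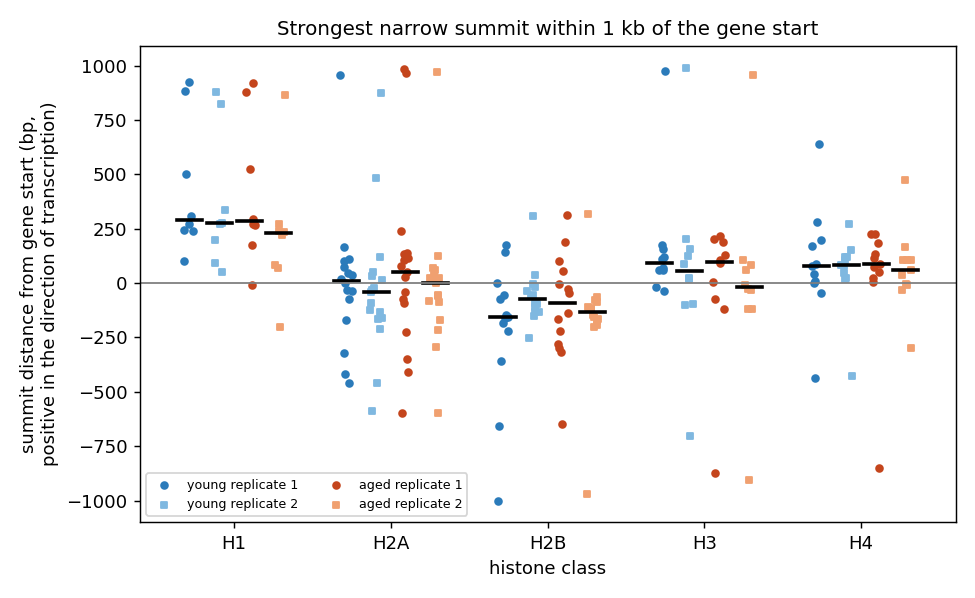
Each point is the distance in bp from a histone gene's start to the strongest narrow summit within 1 kb of it (y axis, positive in the direction of transcription), by class and library, and black bars are medians. H1 medians lie at 229 to 290 bp in every library, H2B medians at -157 to -74 bp, and the libraries of the 2 ages are interleaved.

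Other genes inside the blocks were not listed. Block C encloses 6 other protein-coding genes: Hfe, a regulator of iron uptake, Trim38, and the phosphate transporter family members Slc17a1, Slc17a2, Slc17a3 and Slc17a4. Hfe, Trim38, Slc17a1 and Slc17a4 had a narrow peak in all 4 libraries and the other two had none in any. None of the 6 overlapped a lower or higher site in either of the authors' tables. With shares of 19.7% of all genes and 25.7% of genes with a peak in all 4 libraries, 6 genes are too few to set them apart from other genes.

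Genes related to histone supply were counted in the same windows, from lists chosen by function. The list of replication-independent histone genes holds 11, of which H1f0 and H1f10 were counted among the 67 genes. Of the other 9, among them H2az1 and H2ax, 1 had a lower narrow site, and with H1f10 it was 2 of 11. The 1 gene was H2aj, whose fold was -0.33 with FDR = 0.0312 per the authors' deposited table. Of 13 genes that express and process histone messages 4 did, all parts of the 3′-end cleavage machinery (Cpsf2, Cpsf3, Sympk and Cstf2), while Npat, Hinfp, Pou2f1 and Slbp did not. Of 14 histone chaperones 7 did: Asf1a, Hira, Nap1l1, Hjurp, Ubn1, Cabin1 and Ssrp1. Hjurp, which deposits the centromeric H3 variant, had a fold of -0.41 (FDR = 0.000319), and Ubn1, a partner of Hira, a fold of -0.45 with FDR = 0.00101 per the authors' deposited table. Of 16 S phase genes 9 did: the cyclin genes Ccne1, Ccne2 and Ccna2, the kinase gene Cdk2, the transcription factor gene E2f1 and the replicative helicase genes Mcm2, Mcm4, Mcm5 and Mcm6. Their folds in the authors' deposited table ran from -0.39 to -0.29. No gene of these 4 lists overlapped a higher site. Every gene of the 4 lists had a narrow peak in all 4 libraries, for which the share over all genes is 25.7%, and their shares were 11.1%, 30.8%, 50% and 56.2% in the order given.

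A few genes carry an older Hist symbol and a current one that the choice of letters passes over: H2bu2 and H2aw on chromosome 11, H4bc24 just past the last gene of block A and H4f16 on chromosome 6. All 4 had a narrow peak in all 4 libraries. H4f16 had a lower site in the authors' deposited table, at chr6:136803395-136805222, with a fold of -0.30 (FDR = 0.033), and the H2aj site followed on the same chromosome from 136807913 to 136809545. With members taken by the older symbols, again 67 genes, the counts with a lower site were 41 for narrow and 21 for broad sites.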

How the data were processed

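ATAC-seq libraries of sorted mouse cells, 2 young and 2 aged, were compared. Per the submitters' processing notes, the tools were FastQC 0.11.9, BWA 0.7.17, MACS2 2.1.2 and DiffBind 2.14.0 on GRCm38; duplicate removal, read shifting and multiply mapped reads are not given in the sources used here. The 8 deposited peak lists (narrow and broad, per library) give a fold ratio over background, a −log10 p and q and a score, computed by the authors within a library; the score was not used. In the 2 deposited tables the authors give log2 levels, a log2 fold of aged over young, a p-value and an FDR; their normalization is not stated, and no values per library are given, so no site was retested. Depth is unknown.

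Intervals repeated for several summits were counted once. Peaks and sites were assigned to gene bodies plus 1 kb (overlap of at least 1 bp), over RefSeq GRCm38.p6. Starts come from the promoter table and were known for 17491 genes. Ages were compared by exact two-sided permutation over libraries. Named were all genes with a listed site, the highest and lowest mean fold in each cluster and genes without a peak. Members and lists were chosen with earlier results of these data known. Overlaps were tested on simulated data: 200 of 200 planted sites were recovered over 15000 windows. Tools were bedtools 2.31.1 and, in Python 3.11.15, scipy 1.17.1, pandas 2.3.3, numpy 2.4.6 and matplotlib 3.10.9. Alternatives varied the peak threshold, window, overlap, FDR, libraries and member rule.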

Additional observations from a re-analysis of the deposited data

How the results depend on the processing

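No histone gene gained a site under any of the 7 alternatives run for each table. With the FDR, flank, gene body or site midpoint changed, gained narrow sites were found in 0.00457% to 0.0457% of all genes. For broad sites the shares were 0.119% to 0.553%. With shares this small, a count of 0 says little about histone genes. Genes with a lower narrow site numbered 15 at an FDR under 0.01 (against 4.2% of all genes) and 22 when each site was counted once. The other 5 alternatives gave 35 to 45. Among them were 35 with the gene body alone (against 19.2%), 37 by site midpoint (against 19.3%) and 45 with 5 kb on each side (against 21.3%). Genes with a lower broad site numbered 9 at an FDR under 0.01 (against 1.29%) and 9 when each site was counted once. The other 5 gave 17 to 28. Among them were 21 with the gene body alone (against 4.41%), 17 by site midpoint (against 4.35%) and 28 with 5 kb on each side (against 4.92%). The fewer calls follow from the stricter threshold and from sites shared by genes.

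The difference in genes with a narrow peak (aged minus young) was 0 with p under 1e-05 and -2.5 with at least 50% of the window covered. For broad peaks it was 0 with q under 0.05, with p under 1e-05, with the gene body alone and with the older symbols (chosen after seeing the data), -0.5 with the strongest 50000 peaks of each list and -1 with at least 50% covered. Broad covered length differed by 354 bp with the gene body alone. The cause was not tested. Leaving out 1 library in turn gave 0 to 2 genes for narrow and 0 to 1 for broad peaks, -5096 to -864 bp for narrow and -7080 to 1398 bp for broad length. Mean narrow length was lower in aged libraries under all 11 alternatives, but the libraries of the ages overlapped in some. With the gene body alone it was 38334 bp in aged replicate 1 and 37850 bp in young replicate 1.

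The smallest possible permutation p is 0.333, or 0.5 with the replicate block. With the block, pairing libraries by number, p was 1 for all 4 peak measures (1 and 0.5 genes, -2980 and -2841 bp). Deviations of same-numbered libraries correlated at -0.227 (narrow) and -0.394 (broad), so the numbers were not taken as pairs. The authors' tables hold no library values, so neither a block nor a left-out library could be tried on their counts.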
